A study of Citrullus lanatus with 30 samples.

Results

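Abscisic stress-ripening (ASR) genes code for small hydrophilic plant proteins that were first found in ripening and water-stressed tomato. The watermelon table held 2 genes described as members of this family, of 22596 genes in all, and both passed the filter on low values that 16503 genes passed. They are Cla97C08G146160, described as abscisic stress-ripening protein 1 and called ASR1 here, and Cla97C08G146170, described as an abscisic stress ripening-like protein and called ASR-like here. Their identifiers follow each other on chromosome 8. They were chosen by these descriptions and because ASR1 is among the most abundant transcripts of the flesh, so its high level is a description and not a finding. Of the 3 other genes whose descriptions held the letters ASR, all were trihelix transcription factors, a different family.

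The libraries came from the flesh of watermelon (Citrullus lanatus) fruits of a mutant named clnor and of the wild type (WT). There were 3 libraries each of clnor at 10, 18, 26, 34 and 42 days after pollination (DAP), and 3 each of WT at the same ages, 30 in all. The labels give no allele, mutation or cultivar for clnor, and do not say whether replicates were separate fruits, so p-values measure only how far these libraries spread, and that spread may be technical. The comparisons ask how the members change as the fruit develops and how the mutant differs from WT at each age.

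ASR proteins carry an ABA/WDS domain, named for abscisic acid and water deficit stress, and are often grouped with the late embryogenesis abundant (LEA) proteins, which protect cells during drying. In tomato they are found in the nucleus, where they bind DNA in the presence of zinc, and in the cytosol, where they act as chaperones. In grape an ASR protein binds the promoter of a hexose transporter gene, which has tied the family to sugar accumulation in fruit. Abscisic acid (ABA), the hormone that gives the family its name, is made from carotenoids.

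Levels are in TPM, a share of all transcripts that is scaled for gene length and depth. The table keeps no counts, so the depth of each library and the precision of low values are unknown. TPM sums were 970727 to 985840 per library, and no pair of libraries shared more than 5.01% of its values exactly. Some libraries stood apart from their groups in some genes. WT 18 DAP replicate 2 had 94.75 TPM of ASR-like, against 428 and 922 TPM in replicates 1 and 3. In the library labelled clnor 18 DAP replicate 3, phytoene synthase (Cla97C01G008760), the enzyme of the first committed step to carotenoids, was at 96.8 TPM, against 21.8 and 25.0 TPM in replicates 1 and 2. WT at that age had 126, 232 and 104 TPM. The genotype differences of both members at 18 DAP are given with and without clnor 18 DAP replicate 3.

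ASR1 was abundant in every library of both genotypes. Its level ran over 30 libraries from 11231 TPM (WT 26 DAP replicate 1) to 42492 TPM (clnor 34 DAP replicate 3), a 3.78-fold range, with a median of 24873 TPM. It took 1.15 to 4.36% of the TPM sum of a library. ASR1 was the most abundant gene in 13 libraries, the second in 11 and the third in 4, and its lowest place was the fourth. Its mean over all libraries, 24389 TPM, was the highest in the table. The only other genes ranked first were Cla97C01G010170, in 12 libraries, and Cla97C10G193250, in 5, both described as unknown proteins.

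By group mean, ASR1 had its low point at 26 DAP in both genotypes. In clnor the steps before it did not pass. The log2 difference was 0.008 from 10 to 18 DAP (limma adjusted p = 0.995) and -0.25 from 18 to 26 DAP (limma adjusted p = 0.465). The lowest single clnor library was at 10 DAP. In clnor the libraries were at 34029, 20544 and 14706 TPM at 10 DAP, and at 25897, 19022 and 21226 TPM at 18 DAP. At 26 DAP the clnor libraries were at 17128, 16359.7 and 22093 TPM. The 3 libraries at 10 DAP were the furthest apart of the clnor groups (coefficient of variation 42.9%). At 34 DAP clnor had 37002, 29717 and 42492 TPM, and at 42 DAP 22693, 37223 and 24963 TPM. All 3 libraries at 34 DAP thus lay above all 3 at 26 DAP, while those at 42 DAP overlapped those at 34 DAP and lay above those at 26 DAP.

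In WT, ASR1 was at 24742, 31557 and 31340.3 TPM at 10 DAP and at 16533, 18359 and 25275 TPM at 18 DAP. At 26 DAP the WT libraries were at 11231, 13090.35 and 15134 TPM, the lowest group of the study. At 34 DAP they were at 25614, 27497 and 26168 TPM, and at 42 DAP at 24787, 24959 and 30293 TPM. Every WT library at 26 DAP lay below every WT library of the other ages.

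**Figure D1:**
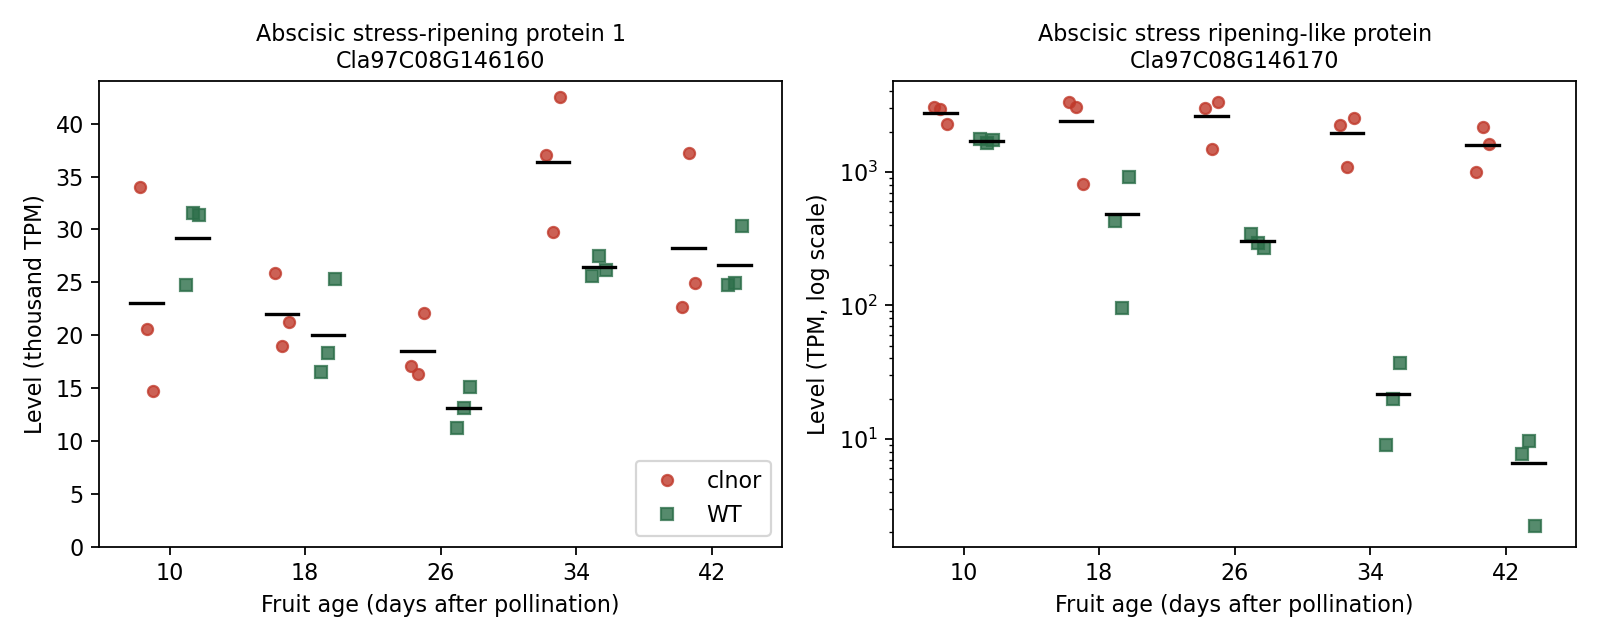
Level of the 2 ASR genes in each of 30 libraries against fruit age in days after pollination; red circles are clnor, green squares WT, and black bars the arithmetic mean of 3 libraries. The left panel shows ASR1 on a linear scale from 0, in units of 1000 TPM, and the right panel ASR-like in TPM on a log scale. The ASR1 mean is lowest at 26 DAP in both genotypes, though the clnor libraries at 26 DAP overlap those at 10 and 18 DAP. ASR-like stays between 809 and 3332 TPM in clnor and drops to between 2.24 and 9.67 TPM in WT at 42 DAP.

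The rise of ASR1 from 26 to 34 DAP was the only step between successive ages that passed with equal weights and TPM as deposited, and it passed in both genotypes. With array weights the clnor step from 34 to 42 DAP passed too (log2 -0.625, limma adjusted p = 0.0194), as did 4152 of the 16503 genes tested. In clnor ASR1 averaged 36404 ± 6408 TPM at 34 DAP and 18527 ± 3112 TPM at 26 DAP (SD, n = 3 each; log2 difference 0.97, SE 0.24, limma adjusted p = 0.00892). In WT it averaged 26426 ± 968 TPM at 34 DAP and 13152 ± 1952 TPM at 26 DAP (log2 1.02, SE 0.24, limma adjusted p = 0.00269). All log2 values here are differences of log2(TPM + 1), adjusted over the 16503 genes tested. In this step 15.8% of all genes passed in clnor (7.33% higher) and 33% in WT (11.9% higher), and the groups did not overlap for 33.3% of all genes in clnor and 51.9% in WT. Without clnor 34 DAP replicate 3 the clnor step did not pass (log2 0.85, limma adjusted p = 0.0523).

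The earlier, lower values of ASR1 in WT did not pass at either step in the model with equal weights. The log2 difference was -0.56 from 10 to 18 DAP (limma adjusted p = 0.0835; 32.3% of all genes passed) and -0.59 from 18 to 26 DAP (limma adjusted p = 0.0596; 36.9%). The second of these came with groups that did not overlap, as 42.8% of all genes had. The first step passed without WT 18 DAP replicate 3 (-0.74, limma adjusted p = 0.0329) or clnor 10 DAP replicate 1 (-0.56, 0.0435). Both steps passed with quantile normalization (limma adjusted p 0.0123 and 0.04) and with array weights (0.0137 and 0.0259). The second passed without WT 26 DAP replicate 3, clnor 10 DAP replicate 1 or 3, or clnor 42 DAP replicate 2 (limma adjusted p 0.0282 to 0.0495). Between 10 and 42 DAP the difference was -0.13 in WT (95% interval -0.63 to 0.38) and 0.35 in clnor (-0.16 to 0.85). Neither passed (limma adjusted p 0.692 and 0.276). Without clnor 10 DAP replicate 1, which had the highest level of its group, the clnor difference was 0.67 and passed (limma adjusted p = 0.0295).

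With equal weights for all libraries and TPM as deposited, ASR1 did not pass as different between genotypes at any age. Array weights give less weight to libraries that vary more and called more genes in most contrasts. With them ASR1 passed at 26 DAP (log2 0.58, limma adjusted p = 0.00682), where 6191 of the 16503 genes tested passed. It also passed at 34 DAP (log2 0.59, limma adjusted p = 0.00341). At 10 DAP it averaged 23093 ± 9911 TPM in clnor, against 29213 ± 3874 TPM in WT (log2 -0.42, 95% interval -0.92 to 0.09, limma adjusted p = 0.593). At 18 DAP the means were 22048 ± 3511 TPM in clnor, against 20055 ± 4611 TPM in WT (log2 0.15, -0.36 to 0.66), and without clnor replicate 3 the log2 difference was 0.17 (limma adjusted p = 0.744). At 26 DAP they were 18527 ± 3112 TPM in clnor, against 13152 ± 1952 TPM in WT (log2 0.49, -0.01 to 0.998, limma adjusted p = 0.19). At 26 DAP the clnor libraries all lay above the WT libraries, as they did at 34 DAP, where the log2 difference was 0.45 (-0.06 to 0.95, limma adjusted p = 0.154). Groups did not overlap for 36.8% of all genes at 26 DAP and 52.2% at 34 DAP. At 42 DAP the means were 28293 ± 7817 TPM in clnor, against 26680 ± 3130 TPM in WT (log2 0.06, -0.45 to 0.56).

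Averaged over the 5 ages, ASR1 differed by log2 0.15 (SE 0.11, limma adjusted p = 0.284), with the clnor mean higher at 4 of 5 ages. An exact permutation of genotype labels within ages gave a two-sided p of 0.238. After quantile normalization the averaged difference passed (log2 0.23, limma adjusted p = 0.0328), as did that at 26 DAP (0.68, limma adjusted p = 0.0203). Quantile normalization gives the most abundant gene of every library the same value, and at 34 DAP, where ASR1 ranked first in all 6 libraries, the difference became 0.

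Ordered by group mean, ASR1 was highest in clnor at 34 DAP, followed by WT at 10 DAP, clnor at 42 DAP, WT at 42 DAP and WT at 34 DAP. Clnor at 10 DAP, clnor at 18 DAP, WT at 18 DAP, clnor at 26 DAP and WT at 26 DAP followed. Of the 9 pairs of neighbours in this order, 8 had overlapping libraries, and only the last pair, clnor and WT at 26 DAP, did not. Within groups ASR1 had a standard deviation of 0.30 on the log2 scale, against a median of 0.29 over all genes tested. Over all 30 libraries its standard deviation was 0.47, and 45.9% of the tested genes had a lower one.

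ASR-like behaved otherwise: it stayed high in clnor and was almost lost from WT flesh. In clnor the libraries were at 3045, 2967 and 2297 TPM at 10 DAP and at 3318, 3083 and 809 TPM at 18 DAP. At 26 DAP the clnor libraries were at 3017, 1489 and 3332 TPM. The single low value at 18 DAP belongs to replicate 3, the library in which phytoene synthase was high. At 34 DAP clnor had 2238, 1089.9 and 2518 TPM, and at 42 DAP 994, 2153 and 1620.1 TPM. No clnor library was below 809 TPM.

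In WT, ASR-like was at 1752, 1645 and 1734 TPM at 10 DAP, 3 closely grouped libraries. At 18 DAP the WT libraries were at 428, 94.75 and 922 TPM, and at 26 DAP at 341, 294 and 271 TPM. Those at 18 DAP were the most scattered WT group (coefficient of variation 86.5%) and spanned all values at 26 DAP. At 34 DAP the WT libraries were at 8.92, 19.8 and 36.7 TPM, and at 42 DAP at 7.75, 9.67 and 2.24 TPM. Every WT library from 34 DAP on lay below every other library of the study. Its rank in a library ran from the 12th place (clnor 18 DAP replicate 1) to the 12674th (WT 42 DAP replicate 3).

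The decline of ASR-like in WT came in the steps from 10 to 18 DAP and from 26 to 34 DAP. It fell to 482 ± 416 TPM at 18 DAP, against 1710.15 ± 57.0 TPM at 10 DAP (log2 -2.35, SE 0.65, limma adjusted p = 0.00873), a step in which 15.5% of all genes fell and 42.9% did not overlap. Without WT 18 DAP replicate 2 this first step did not pass (log2 -1.44, limma adjusted p = 0.0985), nor did it in a fit of these groups alone (limma adjusted p = 0.0846). From 18 to 26 DAP the difference was -0.16 (95% interval -1.50 to 1.19, limma adjusted p = 0.878). At 34 DAP it fell to 21.8 ± 14.0 TPM, against 302 ± 35.7 TPM at 26 DAP (log2 -3.93, SE 0.65, limma adjusted p = 8.98e-05), where 21.1% fell and 51.9% did not overlap. The step to 42 DAP, at 6.55 ± 3.86 TPM, did not pass (log2 -1.56, limma adjusted p = 0.168), where 3.75% of all genes passed. With array weights this step passed (log2 -1.90, limma adjusted p = 0.00144), as did 5093 of the 16503 genes tested.

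From 10 to 42 DAP, ASR-like fell in WT (log2 -7.99, 95% interval -9.33 to -6.65, limma adjusted p = 3.53e-09), where 50.9% of all genes passed in either direction 24.2% fell and 62.7% did not overlap. At 42 DAP its mean was 0.383% of that at 10 DAP. In clnor the mean at 42 DAP was 57.4% of that at 10 DAP, and the difference did not pass (log2 -0.86, 95% interval -2.20 to 0.48, limma adjusted p = 0.308; 39% of all genes passed). The clnor libraries at 42 DAP nevertheless all lay below those at 10 DAP, as the groups did not overlap for 43.8% of all genes. No step between successive ages passed in clnor, where the 4 log2 differences lay between -0.44 and 0.28. Of all genes, 7.08% passed from 10 to 18 DAP in clnor, 31.5% from 18 to 26 DAP and 2.05% from 34 to 42 DAP.

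ASR-like passed as higher in clnor at 4 of 5 ages, and its clnor mean was higher at all 5. The log2 difference was larger at 34 and 42 DAP than at the 3 earlier ages, while the order of 18 and 26 DAP turned without clnor 18 DAP replicate 3. At 10 DAP it averaged 2770 ± 412 TPM in clnor, against 1710.15 ± 57.0 TPM in WT (log2 0.68, 95% interval -0.66 to 2.03, limma adjusted p = 0.816; 0.473% of all genes passed). Although that comparison did not pass, the libraries did not overlap, as for 13.1% of all genes. At 18 DAP it was at 2404 ± 1386 TPM in clnor, against 482 ± 416 TPM in WT (log2 2.59, SE 0.65, limma adjusted p = 0.0375; 2.35% of all genes passed and 1.38% were higher). At this age the groups overlapped, since clnor replicate 3 (809 TPM) lay below WT replicate 3 (922 TPM).

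The call at 18 DAP depended on single libraries. Without clnor 18 DAP replicate 3 the difference was log2 3.25 (limma adjusted p = 0.00278) and without WT 18 DAP replicate 3 it was 3.32 (limma adjusted p = 0.00495). Without both it was 3.98 (limma adjusted p = 2.15e-04). It did not pass without WT replicate 1 (2.77, limma adjusted p = 0.0573), WT replicate 2 (1.69, limma adjusted p = 0.354), clnor replicate 1 (2.23, limma adjusted p = 0.215) or clnor replicate 2 (2.29, limma adjusted p = 0.277). A fit of these groups alone gave a limma adjusted p of 0.57, and the model uses 1 spread per gene for all groups, which differ in spread here.

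From 26 DAP on, all clnor libraries lay above all WT libraries. Groups did not overlap, in either direction, for 36.8% of all genes at 26 DAP and 52.2% at 34 DAP. At 26 DAP ASR-like averaged 2613 ± 986 TPM in clnor, against 302 ± 35.7 TPM in WT (log2 3.03, SE 0.65, limma adjusted p = 0.00252), where 15.5% of all genes passed and 9.66% were higher. At 34 DAP it averaged 1949 ± 757 TPM in clnor, against 21.8 ± 14.0 TPM in WT (log2 6.53, SE 0.65, limma adjusted p = 1.21e-07). At that age 39.4% of all genes passed and 27.4% were called higher in clnor, and none of the 16503 genes tested had a larger positive difference. At 42 DAP it averaged 1589 ± 580 TPM in clnor, against 6.55 ± 3.86 TPM in WT (log2 7.82, SE 0.65, limma adjusted p = 1.02e-08), 226-fold on this scale. At 42 DAP 32.6% of all genes passed, 18.8% were called higher and 47.8% did not overlap, and 1 gene had a larger positive difference.

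**Figure D2:**
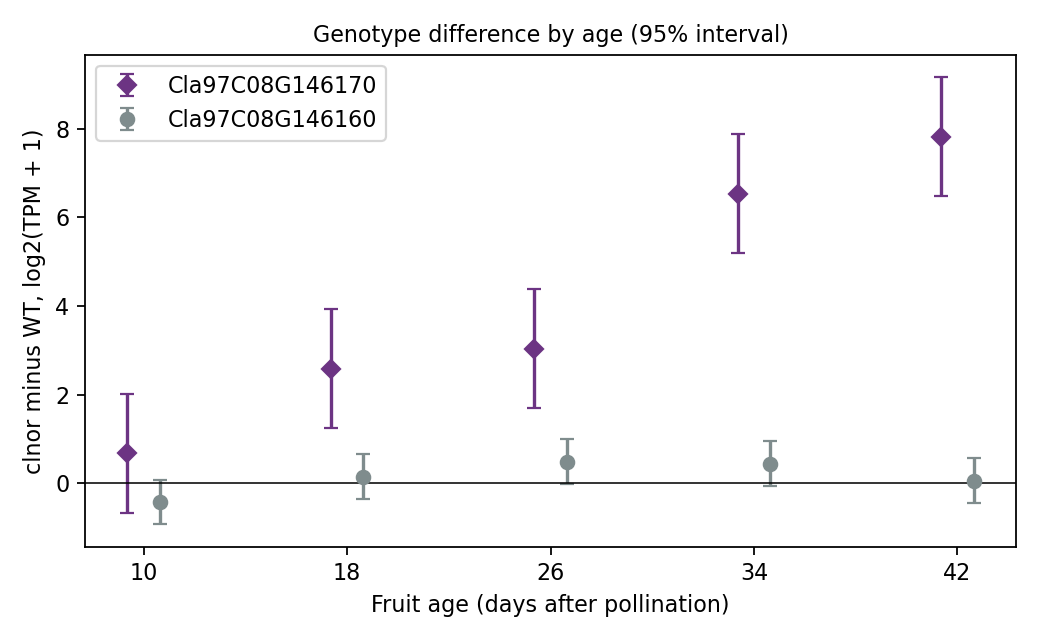
Difference between clnor and WT in log2(TPM + 1) at each age, with 95% intervals from the model over 10 groups; purple diamonds are ASR-like (Cla97C08G146170) and grey circles ASR1 (Cla97C08G146160). The ASR-like difference is 0.68 at 10 DAP and 7.82 at 42 DAP, while all 5 ASR1 intervals include 0.

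Averaged over ages, ASR-like was higher in clnor by log2 4.13 (SE 0.29, limma adjusted p = 2.45e-10). Of all genes 48.2% passed this comparison, with 31.8% higher in clnor, and 2 genes had a larger positive difference. An exact permutation of genotype labels within ages gave a two-sided p of 1.25e-06, where the smallest that the design allows is 6.25e-07. The change of the genotype difference with age passed (F test over 4 changes from 10 DAP, F = 20.7, limma adjusted p = 3.24e-05; 23.1% of all genes passed). For ASR1 the same test did not pass (F = 2.24, limma adjusted p = 0.209). It did pass for ASR1 without clnor 10 DAP replicate 1 (F = 4.845, limma adjusted p = 0.0328). With array weights ASR1 passed too (F = 5.98, limma adjusted p = 0.00579), as did 9341 of the 16503 genes tested.

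Between 10 and 42 DAP the genotype difference of ASR-like grew by log2 7.13 (95% interval 5.24 to 9.03, limma adjusted p = 1.70e-05). Of all genes 19.5% passed, and 10.8% passed with a positive change of clnor minus WT. The difference of ASR1 changed by 0.47 (-0.24 to 1.19, limma adjusted p = 0.366). Ordered by mean, the clnor groups at 10, 26, 18 and 34 DAP came first for ASR-like. WT at 10 DAP, clnor at 42 DAP, and WT at 18, 26, 34 and 42 DAP followed. Of the 9 pairs of neighbours 7 overlapped. The exceptions were clnor at 42 DAP against WT at 18 DAP, and WT at 26 DAP against WT at 34 DAP.

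Since TPM is scaled for length, the 2 neighbours can be set side by side within each library. ASR-like stood at 3.67 to 17.6% of the ASR1 level in the clnor libraries, against 0.00739 to 7.08% in the WT libraries. At 42 DAP the share was 5.55 ± 1.07% in clnor and 0.0258 ± 0.0164% in WT (SD, n = 3 each). At 10 DAP it was 13.0 ± 3.56% in clnor and 5.94 ± 0.998% in WT. At 34 DAP it was 5.21 ± 1.34% in clnor and 0.0823 ± 0.0535% in WT. Across libraries the levels of the 2 genes showed almost no correlation on the log2 scale (Pearson r 0.011 over 30 libraries, 0.049 over the 15 of clnor and -0.207 over the 15 of WT).

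Genes of a family can share reads, and how the authors' counting split such reads is not given in the sources used here. In the WT 42 DAP library where ASR1 was at 30293 TPM, ASR-like was listed at 2.24 TPM. That is 0.00739% of the ASR1 level. The part of shared reads in either level was not tested.

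**Figure D3:**
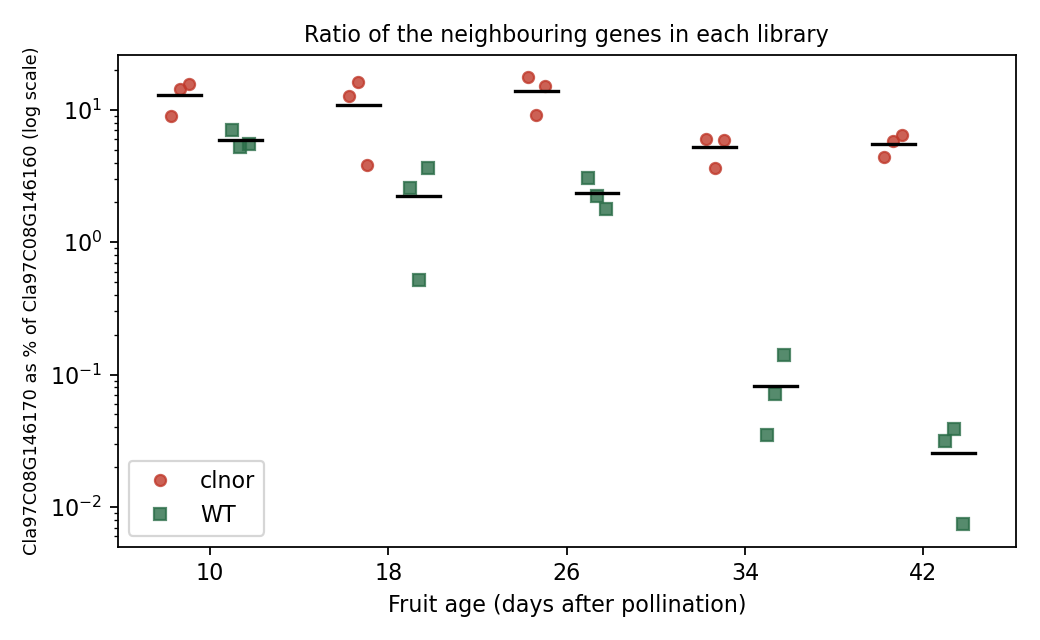
ASR-like as a percentage of ASR1 in each library (log scale) against fruit age; red circles are clnor, green squares WT, and black bars the arithmetic mean of 3 libraries. The clnor libraries keep 3.67 to 17.6% at all ages, and the WT libraries drop to between 0.00739 and 0.0387% at 42 DAP.

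None of the 5 tested neighbours of the pair passed as higher in clnor averaged over ages. Of all genes 31.8% were higher in this comparison, so 5 genes are too few to tell the neighbourhood from the rest. The 60S ribosomal protein L3 gene (Cla97C08G146130), a part of the large ribosomal subunit, was at 283 to 716 TPM over all libraries, with an averaged genotype difference of log2 0.14 (limma adjusted p = 0.114). A cellulose synthase gene (Cla97C08G146150), whose family makes cell wall glucans, was at 8.86 to 59.05 TPM (log2 -0.36, limma adjusted p = 0.138). The unknown protein gene Cla97C08G146140 reached 3.52 TPM at most and was lower in clnor (log2 -0.95, limma adjusted p = 0.00166). On the other side, Cla97C08G146180 reached 0.24 TPM and was not tested. Cla97C08G146190 reached 14.6 TPM (log2 -0.69, limma adjusted p = 0.288). The ROOT PRIMORDIUM DEFECTIVE 1 gene (Cla97C08G146200), of a family that acts in organelle RNA splicing, was at 3.36 to 9.37 TPM (log2 -0.19, limma adjusted p = 0.0847).

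At 18 DAP, ASR-like and phytoene synthase ran in nearly opposite order across the 6 libraries. ASR-like was at 3318, 3083 and 809 TPM in clnor replicates 1 to 3, where phytoene synthase (Cla97C01G008760) was at 21.8, 25.0 and 96.8 TPM. In WT replicates 1 to 3 ASR-like was at 428, 94.75 and 922 TPM, and phytoene synthase at 126, 232 and 104 TPM. The library with the most phytoene synthase thus had the least ASR-like, and clnor replicate 3 lay beside WT replicate 3 in both genes. Over all 30 libraries the Pearson r of their log2 levels was -0.896, with -0.770 over the 15 clnor libraries and -0.866 over the 15 WT libraries. These libraries share ages and genotypes, so the values describe the set. For ASR1 the r with phytoene synthase was -0.019.

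**Figure D4:**
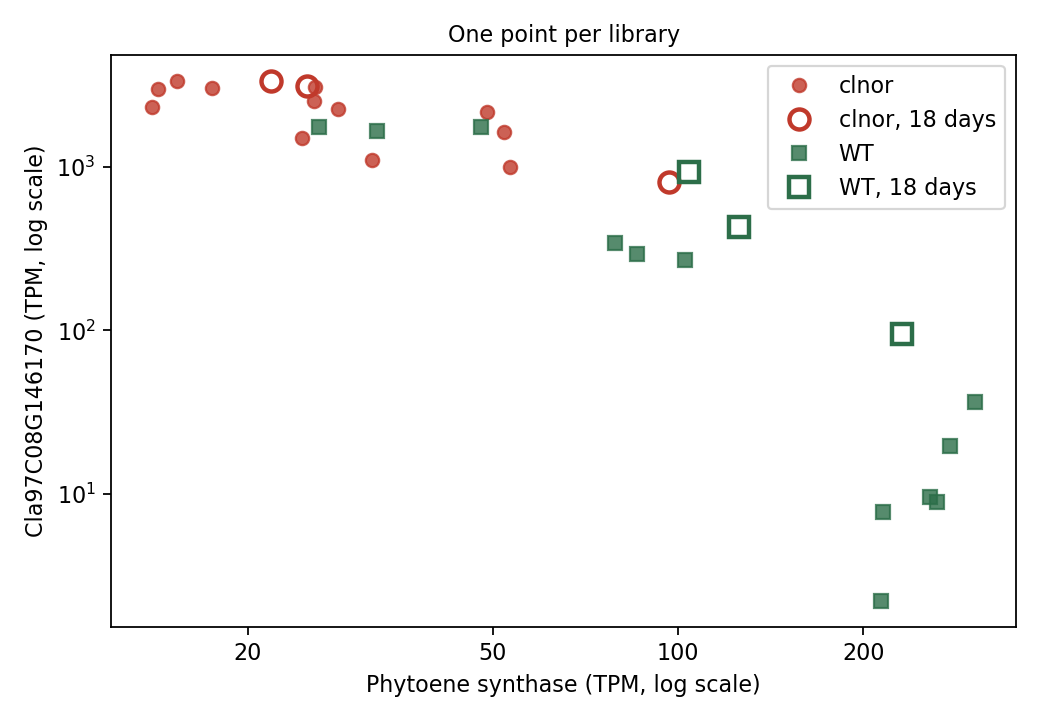
ASR-like against phytoene synthase, both in TPM on log scales, with 1 point per library; red circles are clnor, green squares WT, and large open symbols the libraries at 18 DAP. Libraries with phytoene synthase above 200 TPM have ASR-like at 94.75 TPM or less, and the clnor library at 18 DAP with 96.8 TPM of phytoene synthase lies beside a WT library of that age.

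By likeness over the 30 libraries (Pearson r of log2 levels, among the 11740 described genes with a mean of at least 5 TPM), ASR-like was closest to an isoaspartyl peptidase/L-asparaginase gene (Cla97C03G067270, r 0.966). That gene was at 19.8 ± 4.62 TPM in clnor, against 0.64 ± 1.11 TPM in WT at 42 DAP. Next came a pectinesterase gene (Cla97C01G000480, r 0.958), of an enzyme class that removes methyl groups from wall pectin. It was at 86.9 TPM in clnor, against 4.62 TPM in WT at 42 DAP. The gibberellin receptor GID1A gene (Cla97C03G066940, r 0.957) and the auxilin-related protein 2 gene (Cla97C03G057790, r 0.956) followed.

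The genes furthest from ASR-like rose in WT and stayed low in clnor. An acyl-[acyl-carrier-protein] desaturase gene (Cla97C08G160880, r -0.978), which puts a double bond into fatty acids, was at 0.55, 0.38 and 1.08 TPM in clnor at 42 DAP. In WT at 42 DAP it was at 144, 199.8 and 266 TPM. The SNF1-related kinase regulatory subunit gamma 1 gene (Cla97C05G106620, r -0.975), of a kinase that senses energy supply, was at 2.14 TPM in clnor, against 28.0 TPM in WT.

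ASR1 had no partner as close. The highest r were 0.796 for a kinase family gene (Cla97C09G175830), 0.79 for a chloroplastic nucleoid-associated protein gene (Cla97C06G121700), 0.789 for the ABC transporter G family member 10 gene (Cla97C07G137030) and 0.783 for a methyltransferase-related gene (Cla97C02G042880). The nucleoid-associated protein gene shared the low point at 26 DAP, with means of 61.6 TPM in clnor, against 60.4 TPM in WT at that age. The lowest r were -0.822 for DET1 (Cla97C05G083110), a repressor of light responses in Arabidopsis, and -0.789 for a diacylglycerol kinase gene (Cla97C11G218140).

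The ABA genes around the family were taken by search words in their descriptions, 48 genes of which 40 were tested. Averaged over ages 13 of them were higher and 8 lower in clnor (52.5%, against 48.2% of all genes), with a median log2 difference of -0.001 against 0.09 over all genes. The share was close to the background. At 10 and 18 DAP 1 gene each was called (higher), 2.5% of the list, against 0.473 and 2.35% of all genes. At 26, 34 and 42 DAP 6, 13 and 11 were higher and 4, 7 and 6 lower. These were 25, 50 and 42.5% of the list, against 15.5, 39.4 and 32.6% of all genes. Without clnor 18 DAP replicate 3, 5 of the 40 were higher and 5 lower at 18 DAP, where 2190.0 of the 16503 genes tested passed. From 10 to 42 DAP 10 rose and 11 fell in clnor (52.5%, against 39% of all genes), and 10 rose and 13 fell in WT (57.5%, against 50.9%).

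A 9-cis-epoxycarotenoid dioxygenase gene (Cla97C07G137780) codes for the enzyme that cleaves carotenoids in the rate-limiting step of ABA synthesis. It was at 67.5, 74.6 and 48.9 TPM in clnor at 42 DAP, against 1.67, 3.43 and 1.04 TPM in WT. At 10 DAP it was at 73.2, 81.5 and 48.1 TPM in clnor, against 43.2, 49.8 and 56.3 TPM in WT. It was higher in clnor averaged over ages (log2 2.69, limma adjusted p = 1.72e-09). At 18 DAP it was at 46.9, 55.0 and 13.1 TPM in clnor, with replicate 3 again apart, and at 14.3, 2.22 and 15.8 TPM in WT. The ABA list held other 9-cis-epoxycarotenoid dioxygenase genes, whose levels are not given here. This gene was named for its small averaged p.

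A zeaxanthin epoxidase gene (Cla97C08G156320), an earlier enzyme of the same route, went the other way. At 42 DAP it was at 10.8, 10.2 and 9.35 TPM in clnor, against 38.2, 34.1 and 38.0 TPM in WT (averaged log2 -1.07, limma adjusted p = 1.12e-10). The list held other zeaxanthin epoxidase genes too, whose levels are not given here. Of the molybdenum cofactor sulfurase genes, whose product activates the last enzyme of ABA synthesis, Cla97C02G044410 was lower in clnor (log2 -0.74, limma adjusted p = 4.48e-08) and Cla97C03G054940 higher (log2 1.06, limma adjusted p = 7.54e-07). Cla97C03G054940 did not exceed 5.11 TPM in any library.

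**Figure D5:**
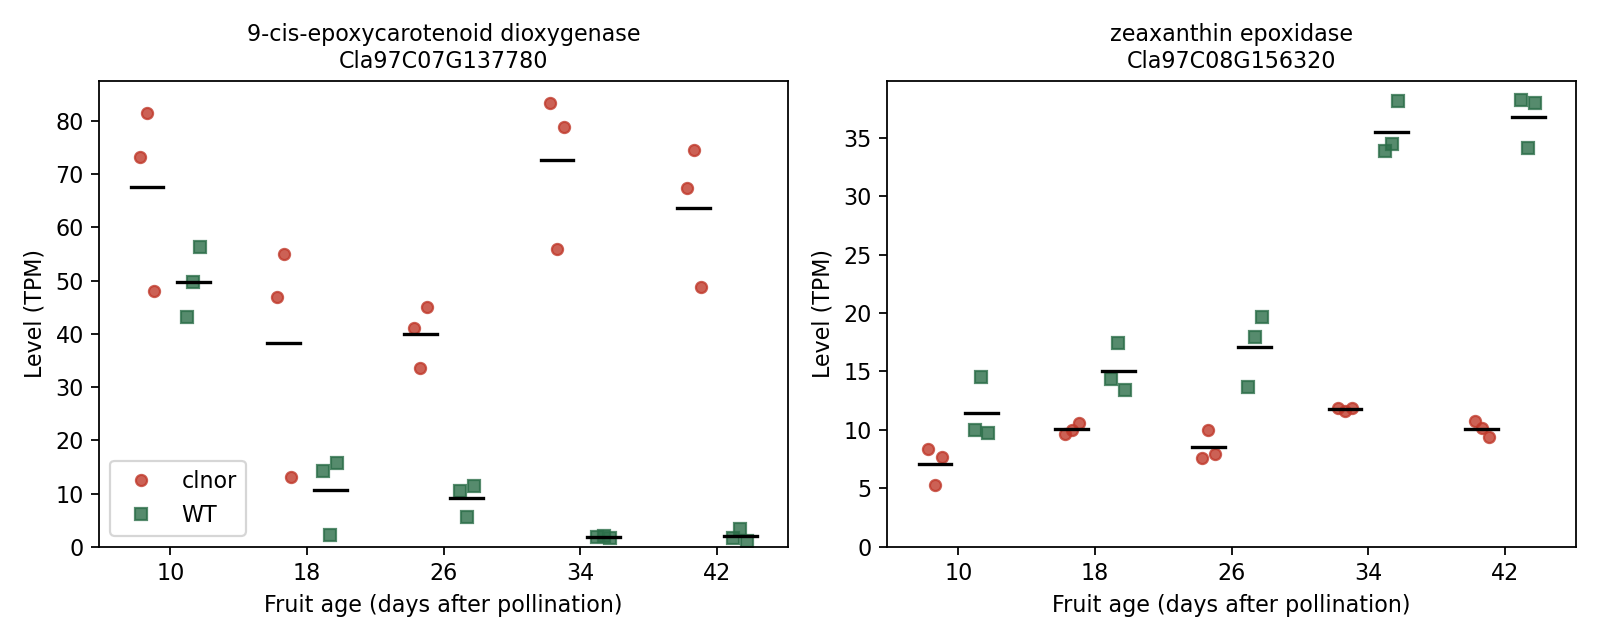
Level in TPM, from 0, of a 9-cis-epoxycarotenoid dioxygenase gene (left) and a zeaxanthin epoxidase gene (right) in each library against fruit age; red circles are clnor, green squares WT, and black bars the mean of 3 libraries. At 42 DAP the first is at 48.9 to 74.6 TPM in clnor and 1.04 to 3.43 TPM in WT, and the second at 9.35 to 10.8 TPM in clnor and 34.1 to 38.2 TPM in WT. Other genes of both descriptions are not shown.

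Among 101 genes described as LEA, dehydrin or desiccation proteins, 60 were tested. Averaged over ages 13 were higher and 10 lower in clnor (38.3%, against 48.2% of all genes; median log2 0.091 against 0.09). The search words also took in the LEA hydroxyproline-rich glycoproteins, which are a separate family. The EARLY RESPONSIVE TO DEHYDRATION 15-like gene (Cla97C01G007940) was at 170 TPM in clnor, against 64.0 TPM in WT at 42 DAP (averaged log2 0.94, limma adjusted p = 1.26e-07). The desiccation-related PCC13-62-like gene (Cla97C06G113860) was lower in clnor averaged over ages (log2 -3.97, limma adjusted p = 3.23e-07). At 42 DAP, with 562 TPM in clnor against 2406 TPM in WT, it did not pass (log2 -2.17, limma adjusted p = 0.114). From 10 to 42 DAP it rose in both genotypes (log2 7.21 in clnor and 7.07 in WT). The hydroxyproline-rich glycoprotein genes Cla97C05G081350 and Cla97C10G201390 were higher in clnor (log2 2.16 and 1.41).

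Of 87 genes described as sugar or polyol transporters 53 were tested, and 21 were higher and 11 lower in clnor averaged over ages (60.4%, against 48.2% of all genes; median log2 0.138 against 0.09). The search words also took in genes described as nucleotide/sugar transporters, such as Cla97C02G047270, whose part in these counts was not separated. From 10 to 42 DAP 9 rose and 17 fell in clnor (49.1%, against 39% of all genes), and 8 rose and 26 fell in WT (64.2%, against 50.9%). The sugar transporter ERD6-like 7 gene (Cla97C07G128370), of a family of vacuolar sugar carriers, was at 36.9 TPM in clnor, against 5.22 TPM in WT at 42 DAP (averaged log2 1.48, limma adjusted p = 4.39e-10). The polyol transporter 5-like gene (Cla97C02G032200) was at 12.8 TPM in clnor, against 0.223 TPM in WT at that age (log2 1.61). A polyol transporter 5 gene (Cla97C02G032230, log2 1.18) and the sugar transport protein 7 gene (Cla97C06G121270, log2 1.14) were also higher in clnor.

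Flesh libraries could hold RNA of other tissues, and in such bulk samples fewer cells of a type and less RNA per cell cannot be told apart. Of 39 phloem genes, which mark the sugar-conducting tissue, 29 were tested, and at 42 DAP 10 were higher and 0 lower in clnor (34.5%, against 32.6% of all genes, of which 18.8% were higher). Their summed level at 42 DAP was 449.5 to 1098 TPM in clnor and 448 to 699 TPM in WT, and in WT at 10 DAP 883 to 1476 TPM. From 10 to 42 DAP 2 rose and 11 fell in clnor (44.8%, against 39% of all genes), and 2 rose and 18 fell in WT (69%, against 50.9%). The most abundant were an F-box protein PP2-B1 gene (Cla97C05G082290, averaged log2 0.37, limma adjusted p = 0.141) and a PHLOEM PROTEIN 2-LIKE A1-like gene (Cla97C01G009580, log2 0.92, limma adjusted p = 0.0424). At 42 DAP 7 phloem genes were at 0 in all clnor libraries and 13 in all WT libraries. The part of phloem tissue in the ASR-like difference was not tested.

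Of 44 seed genes, names shared with lipid transfer proteins included, 22 were tested, and at 42 DAP 1 was higher and 3 lower in clnor (18.2%, against 32.6% of all genes). Their summed level at 42 DAP was 133 to 202 TPM in clnor and 373 to 474 TPM in WT, and 21 genes were at 0 in all clnor libraries and 17 in all WT libraries. An 11S globulin gene (Cla97C05G092030), a storage protein of seeds, was lower in clnor averaged over ages (log2 -6.36, limma adjusted p = 5.76e-08). At 18 DAP clnor replicates 1 to 3 had 0.46, 3.25 and 1057 TPM of it, against 1829.5, 5067 and 959 TPM in WT. A seed storage/lipid transfer gene (Cla97C07G143680) was higher in clnor (averaged log2 3.41, limma adjusted p = 1.36e-06). The part of seed tissue was not tested.

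Of 20 epidermis genes 12 were tested, and averaged over ages 3 were higher and 5 lower in clnor (66.7%, against 48.2% of all genes). At 42 DAP their sum was 535 to 712 TPM in clnor and 606 to 789 TPM in WT. The most abundant were the GLABRA2 expression modulator genes Cla97C08G154460 (averaged log2 -0.21, limma adjusted p = 0.00678) and Cla97C07G142010 (log2 -0.35, limma adjusted p = 0.0217). The WT means at 42 DAP were 312 TPM for Cla97C08G154460 and 261 TPM for Cla97C07G142010. The clnor means, in the same order, were 250 and 234 TPM. Most of the sum thus came from genes listed only because their descriptions held GLABRA2. Whether they mark the epidermis, and the part of epidermal tissue, was not tested. All 8 carotenoid genes taken as marks of ripe flesh were tested and present in every group. Averaged over ages 5 were higher and 1 lower in clnor (75%, against 48.2% of all genes). Their sum at 42 DAP was 262 to 285 TPM in clnor and 374 to 417 TPM in WT. Of that sum, phytoene synthase averaged 51.5 TPM in clnor, against 228.5 TPM in WT. The lower sum in clnor thus does not stand for the genes as a set. At 42 DAP 2 of the 8 were called higher and 1 lower in clnor (37.5%, against 32.6% of all genes). Phytoene synthase was lower in clnor (averaged log2 -2.09, limma adjusted p = 1.49e-09) and a phytoene desaturase gene (Cla97C07G142100) higher (log2 0.26, limma adjusted p = 0.0215).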

How the data were processed

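RNA from watermelon flesh was sequenced in 30 libraries, grouped by the labels into 10 groups of 3. Trizol extraction, an RNeasy clean-up with DNase I and a TruSeq kit were used, per the labels' protocols. Reads were handled with HISAT2, TopHat2, Cufflinks and StringTie, per the submitters' processing notes, whose order, versions and genome build were not given in the sources here. The authors deposited TPM per gene and library for 22596 genes, without pooling replicates; the unit was inferred from library sums that were nearly the same. TPM keeps no depth, and composition changes move all genes, so other scalings were tried.

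The 16503 genes that reached 1 TPM in 3 or more libraries were tested as log2(TPM + 1) in 1 linear model over 10 groups (limma 3.58.1 with eBayes trend and robust, statmod 1.5.0, R 4.3.3; 20 residual degrees of freedom), two-sided, with Benjamini and Hochberg adjustment over all genes of a contrast and a threshold of 0.05. The script was tested on simulated data. The averaged difference was also tested by exact permutation within ages (numpy 2.4.6). Ranks, ratios and correlations are descriptions. No sequence was used.

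Members and lists were chosen with earlier results of these data known. Of the abbreviations among the search words, LEA and ASR were matched as whole words, ASR with or without a digit. Others, such as PYL, SWEET and PP2, were matched at the start of a word, and some, such as GLABRA2, anywhere. Genes named are the members, the 4 genes with the highest and 2 with the lowest r for each member, 3 neighbours on each side, the 4 smallest averaged p of the ABA, LEA and sugar transporter lists, and the 2 most abundant genes of each marker list (seed, phloem, epidermis, ripe flesh). Replicate numbers were not taken to pair libraries: same-numbered clnor and WT libraries of an age had correlations of deviations from -0.407 to 0.247, and 4 of 15 were over 0.1. Alternatives were pseudocounts of 0.1 and 0.5, no filter or one at 5 TPM, a common sum, upper-quartile and quantile scaling, fits of the groups compared alone, a replicate block, array weights, eBayes without trend and robust, and leaving out libraries.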

Additional observations from a re-analysis of the deposited data

Results flagged for a closer look

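The course of ASR-like (Cla97C08G146170) with age differed between clnor and WT (limma F test of the interaction, adjusted p = 3.24e-05). From 10 to 42 DAP the log2 difference was -0.86 in clnor, with all 3 libraries at 42 DAP below those at 10 DAP, and -7.99 in WT, also with all 3 below. The adjusted p of the interaction lay between 1.25e-07 and 1.56e-04 over 11 alternatives and between 1.56e-06 and 1.23e-04 when single libraries were left out.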

How the results depend on the processing

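Over the settings tried, 1457 of 1510 values of the members kept their direction and side of the threshold. Of the counts for the ABA, LEA and sugar transporter lists, 746 of 816 stayed within 1.5 times. Most of the fits that left out 1 library dropped one from outside the 2 groups compared. The log2 difference could not move there, so these totals are high partly by design. ASR-like at 18 DAP lost its call without each of 4 libraries of that age. ASR-like was called higher in clnor at 26, 34 and 42 DAP and averaged over ages under every setting. Replicate numbers did not pair the libraries (median correlation of deviations -0.042; 6 of 15 clnor libraries were closest to their own number), and the replicate block changed 1 member call, ASR-like at 18 DAP (2.59, limma adjusted p = 0.053). That call was also lost with no filter (2.59, 0.067) and with the groups alone (2.59, 0.57), as was its WT step to 18 DAP with the groups alone (-2.35, 0.0846). The causes of these changes were not tested.

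For ASR1, upper-quartile scaling gave -0.11 for WT 42 against 34 DAP and -0.10 for clnor 18 against 10 DAP. Quantile normalization gave 0.68 at 26 DAP, 0.0 at 34 DAP, 0.23 averaged, -0.67 and -0.52 for the first 2 WT steps, -0.36 for WT 42 against 34 DAP, -0.18 for clnor 18 against 10 DAP and 0.0 for clnor 42 against 34 DAP. Of these, 26 DAP (limma adjusted p = 0.0203), the average (0.0328) and the first 2 WT steps (0.0123 and 0.04) were gained calls. Array weights gave further calls for ASR1: 0.58 at 26 (limma adjusted p = 0.00682) and 0.59 at 34 DAP (0.00341), -0.70 and -0.59 for the first 2 WT steps (0.0137 and 0.0259), -0.625 for clnor 42 against 34 DAP (0.0194) and F = 5.98 (0.00579). They gave -0.11 at 42 DAP and 0.0 for clnor 18 against 10 DAP, with no call. For ASR-like they gave -1.90 for WT 42 against 34 DAP, a gained call (0.00144), and -0.004 for clnor 26 against 18 DAP. Without both 18 DAP replicates 3, ASR1 gave -0.74 for WT 18 against 10 DAP, and ASR-like 0.57 for WT 26 against 18, 0.22 for clnor 18 against 10 and -0.38 for clnor 26 against 18 DAP.

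Leaving out single libraries, ASR-like ranged over 1.69 to 3.32 for clnor against WT at 18 DAP, -3.08 to -1.44 and -1.06 to 0.57 for the first 2 WT steps, and -0.80 to 0.22, -0.38 to 0.65 and -0.65 to 0.028 for clnor 18 against 10, 26 against 18 and 42 against 34 DAP. ASR1 ranged over -0.16 to 0.20 at 42 DAP, -0.74 to -0.43, -0.72 to -0.42 and -0.087 to 0.058 for WT 18 against 10, 26 against 18 and 42 against 34 DAP. In clnor it ranged over -0.27 to 0.33, 0.85 to 1.11 and 0.063 to 0.67 for 18 against 10, 34 against 26 and 42 against 10 DAP, and F over 1.35 to 4.845.

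Counts of called genes over the whole table moved as follows. At 10 DAP (78) clnor against WT gave 31 with pseudocount 0.1, 130.0 with no filter, 44 with a filter at 5 TPM, 162 with quantile normalization, 720.0 with array weights, 0 with the groups alone, 150.0 without both 18 DAP replicates 3, and 13 to 301 without single libraries. At 18 DAP (387) it gave 182 with no filter, 2925 with array weights, 0 with the groups alone, 3382 without both replicates 3, and 9 to 2190.0 without single libraries. At 26 DAP (2552) it gave 6191 with array weights and 1485 to 2847 without single libraries. Array weights gave 9267 for WT 34 against 26 DAP, 5093 for WT 42 against 34, 4215, 7990.0, 6933 and 4152 for the 4 clnor steps, 5445 for the change of the difference and 9341 for the F test. The groups alone gave 2373, 3519 and 409 for WT 18 against 10, 26 against 18 and 42 against 34 DAP, 0, 1312 and 0 for clnor 18 against 10, 34 against 26 and 42 against 34, and 3893 for clnor 42 against 10. Where limma on the groups alone called 0 genes, 1362 (10 DAP), 1377 (18 DAP), 2089 (clnor 18 against 10) and 2618 (clnor 42 against 34) had an unadjusted p under 0.05. WT 42 against 34 DAP gave 153 with quantile normalization. Without both replicates 3, clnor 18 against 10 DAP gave 357 and 42 against 34 DAP 691. Without single libraries the counts were 2817 to 6305 and 102 to 802 for WT 18 against 10 and 42 against 34 DAP, and 94 to 3449, 1322 to 2872 and 27 to 723 for clnor 18 against 10, 34 against 26 and 42 against 34 DAP.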

Other observations

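Of the 105 genes with a mean of at least 1000 TPM in WT at 10 DAP, 6 were below 10 TPM in WT at 42 DAP and 0 were below 10 TPM in clnor at that age. These thresholds were chosen after the values of ASR-like were seen. Besides ASR-like the 6 were organ specific protein genes (Cla97C02G032070 and Cla97C02G032080), a proline-rich protein gene (Cla97C08G156820), extensin-3-like (Cla97C09G172550), a structural wall protein, and a short-chain dehydrogenase/reductase gene (Cla97C10G201630). At 42 DAP these 5 genes were at 13.0 to 448 TPM in clnor and 0.767 to 9.45 TPM in WT. ASR-like, with 1589 TPM in clnor, was the 1 gene of the 6 still at 1000 TPM or more there.

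The abundant unknown protein gene Cla97C10G193250, which ranked first in 5 libraries, was at 1199, 1535 and 27649 TPM in clnor replicates 1 to 3 at 18 DAP, against 26344, 35295 and 30690.4 TPM in WT. It was chosen after its values were seen. The library labelled clnor 18 DAP replicate 3 thus lay with the WT libraries in this gene too. It lay nearer to the other clnor libraries in others: zeaxanthin epoxidase (Cla97C08G156320) was at 10.6 TPM there, against 13.4 to 17.4 TPM in WT at 18 DAP, and the acyl-[acyl-carrier-protein] desaturase gene (Cla97C08G160880) at 0.78 TPM, against 1.64 to 7.93 TPM. The isoaspartyl peptidase/L-asparaginase gene (Cla97C03G067270) was at 23.6 TPM there, between 34.4 and 34.5 TPM in the other clnor libraries and 7.0 to 13.8 TPM in WT. Clnor 10 DAP replicate 1 stood apart in Cla97C10G193250 as well, at 16778 TPM against 5767 and 1875 TPM in replicates 2 and 3. WT at 10 DAP had 17694, 17480 and 25227 TPM of that gene.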
